A study of Mus musculus with 10 samples.

Results

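The potassium channel genes are the 93 autosomal protein-coding genes of the GENCODE M1 annotation (assembly NCBIM37) whose symbol begins with Kcn, has further letters and then a number. They are 93 of 21418 autosomal protein-coding genes and carry 91 symbols, because Kcnb2 and Kcnh8 are each annotated as a pair of separate genes. The rule uses the symbol and no measured value. Peaks from ChIP-seq of H3K27me3 and of Mtf2 were read at these genes in e14.5 mouse fetal liver (FL) cells. The wild-type (WT) cells and the Mtf2-null cells were both sorted into CD71+Ter119-/lo and CD71+Ter119high fractions, and Mtf2 was profiled in WT cells only. The Mtf2-null embryos carry Pcl2-/-, a constitutive deletion from gene-targeted C57Bl/6 ES cells that were aggregated with CD1 blastocysts and bred on C57Bl6/J. The loss is therefore present in every cell of the embryo and not in the erythroid lineage alone. Each sample held 500000 cells, and the labels give no other treatment. There were 6 ChIP libraries and 4 IgG controls, 1 library per condition, so no spread between replicates and no test between conditions could be given. In WT cells the H3K27me3 and Mtf2 libraries of a fraction share 1 IgG library.

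Potassium channels let potassium leave or enter cells and set the resting membrane potential. Voltage-gated pores open on depolarization, silent subunits join such pores and change them, inward rectifiers and two-pore domain channels hold the resting potential, and other channels open on internal calcium or sodium. In red cells the calcium-activated channel Kcnn4, the Gardos channel, controls cell volume, while many other members are best known from neurons and muscle. H3K27me3 is the histone mark that polycomb repressive complex 2 (PRC2) lays down, usually over CpG islands of inactive genes, and Mtf2 (also called Pcl2) is a PRC2-associated protein.

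The 6 peak lists held between 1407 and 28918 peaks from libraries of 15669899 to 67169672 unique tags. The Mtf2-null H3K27me3 libraries held 1.95 times the unique tags of WT in CD71+Ter119-/lo cells and 2.23 times in CD71+Ter119high cells. The false discovery rate (FDR) that the authors' peak caller gave was 100% for every peak of the Mtf2-null CD71+Ter119-/lo list. It was at least 6.94% for every Mtf2 peak in CD71+Ter119high cells and at most 33.9% for WT H3K27me3 in CD71+Ter119high cells. A gene without a listed peak can still carry the mark below the peak caller's cutoff. Of the erythroid markers fixed for a check of cell identity, 8 of 10 symbols were matched in the annotation. None of the 8 had a promoter H3K27me3 peak in any list, while 1 of 4 hepatoblast markers and 1 of 3 matched neural markers had one in WT CD71+Ter119high cells. Of 3 macrophage markers 1 had one in Mtf2-null CD71+Ter119-/lo cells, and of 3 megakaryocyte markers 1 had one in WT CD71+Ter119-/lo cells. Between 1.26% and 12.0% of all genes had a promoter H3K27me3 peak, depending on the list, so these few markers cannot tell cell types apart. Peak lists hold no expression, so the sorted cell type could not be checked.

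The sequence under the peaks is shown first, because the promoter H3K27me3 peaks and the intronic Mtf2 peaks lay on different kinds of DNA. Each run is 200 bases of NCBIM37 around a peak summit, plus strand, with CG dinucleotides in capitals. The first 4 are the highest-scoring promoter H3K27me3 peaks in WT CD71+Ter119high cells. They held between 27 and 29 CG in 200 bases, against a median of 12 over all peaks of that list and of 24 over the 41 promoter peaks of channel genes.
Kcng3 promoter H3K27me3, chr17:84030457-84030656: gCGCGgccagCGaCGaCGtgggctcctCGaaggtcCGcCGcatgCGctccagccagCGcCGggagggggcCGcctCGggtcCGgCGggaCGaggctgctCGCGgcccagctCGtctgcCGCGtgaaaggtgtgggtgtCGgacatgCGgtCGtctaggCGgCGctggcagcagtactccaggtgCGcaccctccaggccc
Kcnk3 promoter H3K27me3, chr5:30890354-30890553: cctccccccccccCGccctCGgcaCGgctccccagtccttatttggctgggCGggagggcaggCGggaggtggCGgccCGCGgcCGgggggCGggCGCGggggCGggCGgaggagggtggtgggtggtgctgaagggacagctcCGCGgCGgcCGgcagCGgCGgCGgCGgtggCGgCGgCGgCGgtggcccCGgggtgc
Kcnh3 promoter H3K27me3, chr15:99055096-99055295: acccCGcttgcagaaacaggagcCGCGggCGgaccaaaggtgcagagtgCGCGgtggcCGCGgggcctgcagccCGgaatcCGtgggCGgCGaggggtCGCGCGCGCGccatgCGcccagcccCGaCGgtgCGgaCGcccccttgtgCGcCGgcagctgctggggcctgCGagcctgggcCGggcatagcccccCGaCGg
Kcna7 promoter H3K27me3, chr7:52661924-52662123: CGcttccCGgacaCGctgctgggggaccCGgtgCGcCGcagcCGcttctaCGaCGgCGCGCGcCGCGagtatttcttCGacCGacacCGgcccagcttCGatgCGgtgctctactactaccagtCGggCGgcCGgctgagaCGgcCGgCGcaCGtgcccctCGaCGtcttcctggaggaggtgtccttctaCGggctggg

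The next 4 runs are intronic peaks, chosen after their values were seen, whose 32-base words had a median of 1 exact copy in the genome. That median is over the whole peak, not over the 200 bases shown. The first pair are the highest-scoring intronic Mtf2 peaks of CD71+Ter119-/lo cells with that median, in Kcnq1 and Kcnd2. The Kcnd2 peak that follows was listed for Mtf2 in both fractions and for H3K27me3 in WT CD71+Ter119-/lo cells. The last is the Mtf2 peak of Kcnn4.
Kcnq1 intronic Mtf2, CD71+Ter119-/lo, chr7:150346855-150347054: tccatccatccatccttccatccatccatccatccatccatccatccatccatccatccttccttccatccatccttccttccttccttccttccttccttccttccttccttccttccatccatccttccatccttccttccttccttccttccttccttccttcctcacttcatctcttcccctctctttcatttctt
Kcnd2 intronic Mtf2, CD71+Ter119-/lo, chr6:21479770-21479969: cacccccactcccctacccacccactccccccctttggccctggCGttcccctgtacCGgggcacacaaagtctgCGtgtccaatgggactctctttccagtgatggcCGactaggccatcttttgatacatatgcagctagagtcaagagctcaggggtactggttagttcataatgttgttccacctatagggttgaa
Kcnd2 intronic Mtf2, CD71+Ter119high, chr6:21212769-21212968: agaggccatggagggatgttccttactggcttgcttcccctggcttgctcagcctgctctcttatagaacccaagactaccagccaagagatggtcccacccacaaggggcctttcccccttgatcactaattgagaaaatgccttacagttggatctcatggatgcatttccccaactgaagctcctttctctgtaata
Kcnn4 intronic Mtf2, CD71+Ter119-/lo, chr7:25162881-25163080: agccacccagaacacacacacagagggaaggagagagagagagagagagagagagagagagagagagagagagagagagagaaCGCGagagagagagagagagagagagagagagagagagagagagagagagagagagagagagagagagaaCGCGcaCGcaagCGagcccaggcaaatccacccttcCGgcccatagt
These runs held between 0 and 7 CG, and the 76 intronic Mtf2 peaks of channel genes in CD71+Ter119-/lo cells had a median of 2.5. The Kcnq1 and Kcnn4 runs are largely short tandem motifs, which are visible in the letters.

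In WT CD71+Ter119high cells, 31 of 93 channel genes (33.3%, 95% Wilson interval 24.6 to 43.4) had an H3K27me3 peak within 5 kb of a transcription start site (TSS). The share over all autosomal protein-coding genes was 12.0%. In WT CD71+Ter119-/lo cells, 6 genes had such a peak (6.45%, 2.99 to 13.4), against 3.39% of all genes. In Mtf2-null cells 1 gene had one in each fraction (1.08%, 0.19 to 5.84), against 1.26% of all genes in CD71+Ter119-/lo cells and 1.59% in CD71+Ter119high cells. The WT CD71+Ter119high share of channel genes therefore lay above that of all genes with its whole interval, whereas the intervals of the other 3 H3K27me3 lists held the share of all genes. Genes of a family are not independent, and the intervals cover counting error only.

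Voltage-gated pore genes made up 13 of the 31. Kcnh2, which encodes the cardiac repolarizing channel hERG, had 76 tags in its peak at chr5:23856705-23858072, a fold enrichment over IgG of 11.98 and a score of 215.64, where the score is the negative log10 of the peak caller's p, multiplied by 10. Kcnh3, a brain channel of the Elk group on chr15:99055292-99073248, had a peak of 83 tags with a fold of 11.98 and a score of 260.87. Kcna7, a Shaker-type channel on chr7:52661330-52666752, had 79 tags, a fold of 11.13 and a score of 256.3. The fast-activating Shaw-type channel Kcnc4 had the broadest peak of these, 3300 bp at chr3:107260916-107264215, with 144 tags, a fold of 7.34 and a score of 219.55. Kcnd3 (chr3:105254586-105256319), a carrier of transient outward current, had 82 tags, a fold of 9.54 and a score of 151.88. Others among the 13 were Kcna2, Kcna3, Kcnc1, Kcnh4 and Kcnq5. Their strongest peaks held 33 tags at Kcna2, 57 at Kcna3, 54 at Kcnc1, 55 at Kcnh4 and 42 at Kcnq5.

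The highest-scoring promoter peak of any channel gene belonged to a silent subunit. Kcng3, which forms no working channel alone and modifies others, lies on chr17:83985297-84031235, minus strand. Its peak at chr17:84029072-84032101 spanned the TSS and reached into an intron, with 199 tags, 6.62 tags per 1000000 unique tags, a fold of 13.69 and a score of 641.58. The other silent subunits with a peak were Kcng1 (56 tags), Kcng2 (40 tags) and Kcns3 (47 tags). Of the Kcng genes 3 of 4 were listed, as were 3 of 4 Kcnc genes among the pores. With 4 genes in a subfamily the interval for 75.0% ran from 30.1 to 95.4.

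Two-pore domain genes, whose channels carry background potassium current, had a peak at 6 of 14. Kcnk3, the acid-sensitive channel TASK-1 on chr5:30890543-30927643, had 94 tags at chr5:30889904-30891733, a score of 267.53 and a fold of 16.91, higher than at any other channel promoter in the list. Kcnk13, a halothane-inhibited channel, had 37 tags with a fold of 12.32. The acid-sensitive TASK-3 channel Kcnk9 had 47 tags with a fold of 11.23, and Kcnk6 had 70 tags with 11.13. Kcnk4 (68 tags) and Kcnk12 (58 tags) made up the rest. The Kcnk13 summit lay 3.15 kb upstream of the TSS, not over it.

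The remaining classes held fewer. Inward rectifiers had a peak at 2 of 15 genes, Kcnj4 (108 tags) and Kcnj12 (64 tags), both strong rectifiers. Accessory subunits had one at 3 of 15, among them Kcnmb4, the neuronal beta subunit of the large-conductance calcium-activated channel, with 109 tags at chr10:115909726-115912128, a fold of 8.07 and a score of 180.08. The other two were Kcnip2 (23 tags) and Kcnip3 (42 tags), calcium-binding partners of voltage-gated channels. None of the 4 Kcne genes had a peak of any list within 5 kb of a TSS or over the gene. The share of all genes without any such peak was not computed. Calcium- or sodium-activated genes had one at 3 of 8, namely Kcnt1 (40 tags), Kcnn3 (21 tags) and Kcnn1 (25 tags). The Kcnn1 peak lay 4.92 kb upstream of its TSS and was nearer to the TSS of A230052G05Rik.

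By class, the share with WT CD71+Ter119high promoter H3K27me3 was 42.9% of two-pore domain genes (interval 21.4 to 67.4), 41.9% of voltage-gated pores (26.4 to 59.2) and 40% of silent subunits (16.8 to 68.7). It was 37.5% of calcium- or sodium-activated genes (13.7 to 69.4), 20% of accessory subunits (7.05 to 45.2) and 13.3% of inward rectifiers (3.74 to 37.9). The intervals of all 6 classes overlapped, so no order among the classes was resolved. The lower bounds of the first 4 lay above 12.0%, the share of all genes, and those of accessory subunits and inward rectifiers did not. Calcium- or sodium-activated genes fell to 2 of 8 (25%) when the summit had to be nearest to the gene's own TSS and to 0% at a score of at least 100, where silent subunits fell to 10%.

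**Figure D1:**
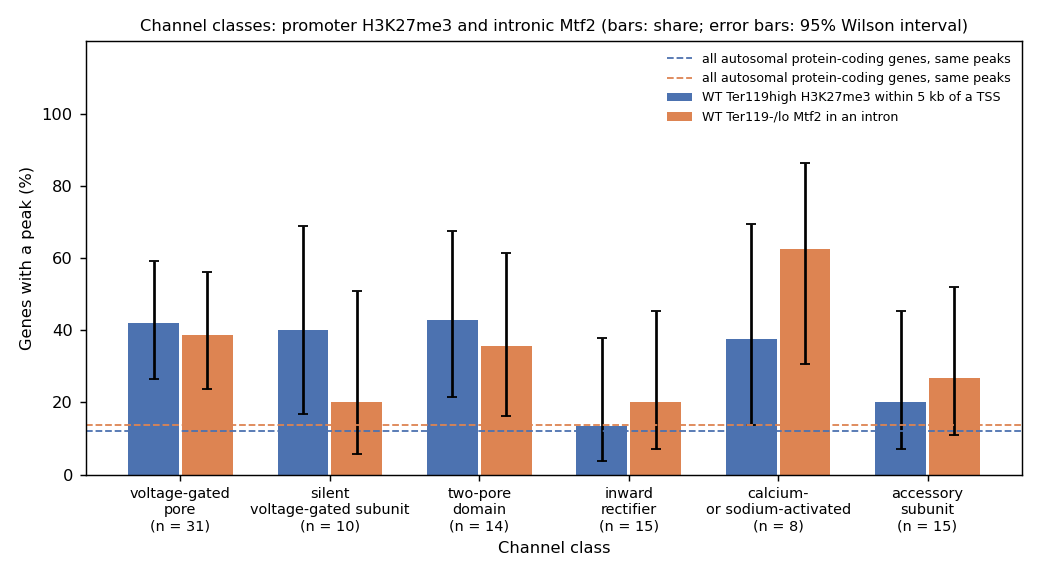
Share of genes (%) in each channel class with a WT CD71+Ter119high H3K27me3 peak within 5 kb of a TSS (blue) and with a WT CD71+Ter119-/lo Mtf2 peak in an intron (orange). Error bars are 95% Wilson intervals, and dashed lines are the shares over all autosomal protein-coding genes, 12.0% and 13.8%. All intervals of one colour overlap.

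The 31 genes held 41 promoter peaks, 1 at each of 21 genes and more at 10. The summit lay within 1 kb of a TSS for 34 of the 41, with 22 summits downstream and 19 upstream. The channel gene's own TSS was the nearest protein-coding TSS for 40 of 41, the exception being the Kcnn1 peak. The median peak held 54 tags (1.80 per 1000000 unique tags) with a fold of 8.09, beside 46 tags (1.53 per 1000000) and 8.56 over the 2865 promoter peaks of all genes. Scores ran from 52.69 to 641.58, and 17 peaks at 15 genes scored at least 100. The deposited FDR of these peaks ran from 2.09% to 30.3%. Just inside the 5 kb limit the peak edge nearest to the TSS lay 4.35 kb away at Kcnn1 and 2.58 kb at Kcnk13. Just outside it lay 7.42 kb away at Kcnj14, where the peak of 161 tags (chr7:53087540-53090004) was nearest to Grwd1, and 26.96 kb at Kcnu1, with a peak of 22 tags (chr8:27049121-27049697). No gene fell between 4.35 and 7.42 kb.

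**Figure D2:**
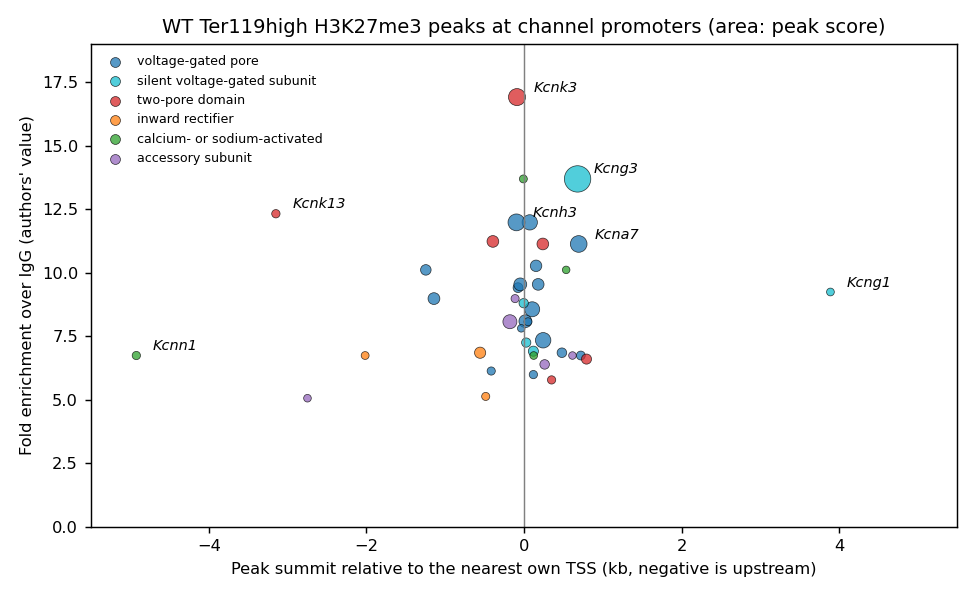
Fold enrichment over IgG (vertical axis, authors' value) against the distance of the summit from the gene's nearest own TSS (horizontal axis, kb, negative is upstream) for the 41 WT CD71+Ter119high promoter H3K27me3 peaks of channel genes. Dot area is the peak score and colour the channel class. Of the 41 summits 34 lie within 1 kb, and Kcng3 has the highest score, 641.58.

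The promoter peaks lay on CpG-rich DNA. In the 1 kb around the summit, 28 of 41 peaks (68.3%, 53.0 to 80.4) had at least 50% GC and a CpG observed over expected ratio of at least 0.6, called island-like here. The share was 65.7% over the promoter peaks of all genes in the same list, so the peaks of channel genes did not differ from these beyond counting error. At the gene's 5′ end, 39 of 93 channel genes were island-like (41.9%, 32.4 to 52.1), close to 45.1% of all genes. Of these 39, 22 had a WT CD71+Ter119high promoter peak (56.4%, 41.0 to 70.7), against 18.5% of all island-like genes. Of the other 54 channel genes, 9 had one (16.7%, 9.02 to 28.7), against 6.60% of the other genes. The share was thus above that of all genes in both groups.

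Of the 6 genes with a promoter peak in WT CD71+Ter119-/lo cells, 5 also had one in CD71+Ter119high cells (5.38% of channel genes, against 1.74% of all genes). Among them were Kcna7, Kcnh3, Kcnk4 and Kcnk13. Kcnj16, an inward rectifier subunit, had a WT CD71+Ter119-/lo peak alone. At Kcna7 the CD71+Ter119-/lo peak held 1.74 tags per 1000000 and the strongest CD71+Ter119high peak 2.63. The respective values were 1.32 and 2.26 at Kcnk4. At Kcnh3 they were 0.84 and 2.76, and the CD71+Ter119high peak that overlapped the CD71+Ter119-/lo one held 1.90. At Kcnk13 they were 0.95 and 1.23, from peaks on opposite sides of the TSS that did not overlap. Peaks with a score of at least 100 were absent from the CD71+Ter119-/lo promoters of channel genes.

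None of the 31 genes had a Mtf2-null CD71+Ter119high peak within 5 kb of a TSS, and no peak of that list overlapped any of the 41 WT peaks. Over all genes, 11.8% had a WT promoter peak in this fraction and none in Mtf2-null cells. Among genes with the WT peak, 31 of 31 channel genes (interval 89.0 to 100) and 98.8% of all genes (2531 of 2562) lacked the Mtf2-null peak, so channel genes did not stand apart. None of the 322 Mtf2-null CD71+Ter119high promoter peaks over all genes was island-like, against 1882 of 2865 in WT. In CD71+Ter119-/lo cells all 6 genes with a WT promoter peak lacked a Mtf2-null one (3.20% of all genes did so), and over all genes 94.6% of those with the WT peak did. With 1 library per condition, genotype and library cannot be told apart.

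The pair of channel genes with a Mtf2-null promoter peak were Kcng1 and Kcnh8. At Kcng1 the Mtf2-null CD71+Ter119-/lo peak held 25 tags (0.68 per 1000000) with a fold of 4.46 and an FDR of 100%. It lay in an intron 3.55 kb downstream of a TSS and overlapped a WT CD71+Ter119high peak of 29 tags (0.96 per 1000000). The stronger WT peak of Kcng1, 0.03 kb from another TSS, had no Mtf2-null counterpart. At Kcnh8 the Mtf2-null CD71+Ter119high peak (85 tags, fold 7.98) lay 2.52 kb upstream of the shorter, minus-strand gene of that symbol (chr17:53093281-53121602). A CD71+Ter119-/lo Mtf2 peak of 75 tags overlapped it, and no WT H3K27me3 peak was listed within 5 kb of a Kcnh8 TSS.

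In Mtf2-null CD71+Ter119high cells 12 channel genes had an intronic H3K27me3 peak (12.9%, 7.54 to 21.2), against 4.08% of all genes. They were Kcnb2, Kcnd2, Kcnh1, Kcnh7, Kcnip4, Kcnj3, Kcnj6, Kcnmb2, Kcnmb4, Kcnn2, Kcnq5 and Kcnt2. The 15 peaks had a median of 50 tags, a median GC of 40.4% and a median fold of 5.15, and none was island-like. Per length of intron the Mtf2-null CD71+Ter119high list had 0.16 peaks per 100 kb in channel genes and 0.13 in all genes. In WT CD71+Ter119high cells 29 channel genes had an intronic peak (31.2%, against 10.7% of all genes). Most of these peaks reached within 5 kb of a TSS and are the promoter peaks already counted above. Per 100 kb of intron the WT CD71+Ter119high list had 0.39 peaks in channel genes and 0.33 in all genes. In WT CD71+Ter119-/lo cells 16 genes had an intronic peak (17.2%, against 4.73%), with 0.26 peaks per 100 kb beside 0.15 in all genes. Mtf2-null CD71+Ter119-/lo cells had 3 such genes (3.23%, against 2.25%). Over the whole gene body, exons included, the counts were 35 genes for WT CD71+Ter119high H3K27me3 (11.9% of all genes) and 16 for WT CD71+Ter119-/lo (5.06%). They were 12 for Mtf2-null CD71+Ter119high (4.13%) and 3 for Mtf2-null CD71+Ter119-/lo (2.38%), so exons added genes in 1 of these 4 lists.

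Mtf2 peaks at channel genes lay in introns far from the TSS. In CD71+Ter119-/lo cells 31 genes had an intronic Mtf2 peak (33.3%, 24.6 to 43.4), against 13.8% of all genes, with 76 peaks in all. Their summits lay between 2.32 and 490.12 kb from the nearest own TSS, with a median of 53.08 kb, and 4 peaks at 3 genes reached into the 5 kb around a TSS. Within 5 kb of a TSS, 6 genes had a Mtf2 peak (6.45%, 2.99 to 13.4), against 8.34% of all genes. These were Kcna5, Kcnab1, Kcnh8, Kcnj16, Kcnk15 and Kcnk18. None of these 6 had a WT CD71+Ter119high promoter H3K27me3 peak, beside 12.0% of all genes. The share among all genes with a promoter Mtf2 peak was not computed. With 6 genes and no such share, this is not a trait shown for channel genes. At Kcnj16 and Kcnk15 the CD71+Ter119-/lo Mtf2 peak overlapped a WT H3K27me3 peak of the same fraction. None of the 41 WT CD71+Ter119high promoter H3K27me3 peaks was overlapped by a Mtf2 peak of either fraction. The share over the promoter peaks of all genes was not computed, so this is not a trait shown for channel genes. In CD71+Ter119high cells 11 genes had an intronic Mtf2 peak (11.8%, 6.73 to 19.9), against 4.24% of all genes, and 1 gene, Kcnk15, had one within 5 kb of a TSS (1.08%, against 1.47%). Every Mtf2 peak over the body of a channel gene touched an intron.

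The number of intronic peaks differed between the genes, as did the length of intron. Kcnip4, which encodes a Kv channel-interacting protein and was the longest member at 1135 kb, held 6 intronic Mtf2 peaks in CD71+Ter119-/lo cells. Kcnd2, Kcnh1 and Kcnq3 held 5 each, and Kcnab1, Kcnmb2 and Kcnn2 held 4 each. In all, 11 genes held 1 peak, 7 held 2 and 13 held 3 or more. These counts are not scaled to intron length, and their spread over all genes was not computed. The peak with the highest score, at chr5:49061981-49066020 in Kcnip4, held 211 tags (7.27 per 1000000) with a fold of 11.44 and a score of 655.4. The highest fold of that list at a channel gene was 26.53, at Kcnc2 (chr10:111861784-111863537, 94 tags). In CD71+Ter119high cells the genes were Kcnb2, Kcnd2, Kcnh1, Kcnh5, Kcnh7, Kcnip4, Kcnn2, Kcnq3, Kcnq5, Kcns3 and Kcnu1. Of these 11, 10 also had an intronic Mtf2 peak in CD71+Ter119-/lo cells, Kcnh7 being the exception. Among all genes, 909 had an intronic CD71+Ter119high Mtf2 peak. Of these, 114 with WT CD71+Ter119high promoter H3K27me3 and 623 without it also had one in CD71+Ter119-/lo cells. Most genes with the one peak thus had the other, as among channel genes. The highest fold of the CD71+Ter119high Mtf2 list at a channel gene was 26.84, at Kcnd2 (chr6:21212369-21213231, 21 tags).

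Promoter H3K27me3 and intronic Mtf2 were then compared gene by gene. In WT, 25 genes had CD71+Ter119high promoter H3K27me3 without an intronic CD71+Ter119-/lo Mtf2 peak (9.95% of all genes did), 25 had intronic Mtf2 without it (11.8% of all genes), 6 had both (2.01%) and 37 had neither (76.2%). Among the 6 with both were Kcng3, Kcnk3, Kcnk12, Kcnq5 and Kcns3. Among channel genes with promoter H3K27me3, 19.4% (9.19 to 36.3) had an intronic Mtf2 peak, and among those without it 40.3% (29.02 to 52.7) had one. The intervals of these shares overlapped. Over all genes the shares were 16.8% with and 13.4% without, but the order turned once genes were split by length. The promoter peaks and the intronic Mtf2 peaks come from different fractions. In CD71+Ter119high cells alone, 2 of the 31 genes with promoter H3K27me3 had an intronic Mtf2 peak (6.45%, against 5.27% over all genes) and 9 of the 62 others (14.52%, against 4.10%). At Kcnk3 the promoter peak lay 0.09 kb from the TSS and the Mtf2 peak 24.34 kb downstream of it. At Kcng3 the Mtf2 peak lay 41.72 kb downstream, and at Kcnq5 the 3 Mtf2 peaks lay between 132.57 and 275.71 kb downstream.

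Gene length moved with the intronic peaks. The median length of channel genes was 29.5 kb, beside 15.5 kb for all genes. It was 268.8 kb for those with intronic Mtf2 without promoter H3K27me3, 56.4 kb for those with both, 21.6 kb for those with promoter H3K27me3 without Mtf2 and 8.65 kb for those with neither. Of the 47 channel genes up to the median length, 3 had an intronic Mtf2 peak (6.38%), and of the 46 longer ones 28 did (60.9%, 46.5 to 73.6). Over all genes of these lengths the shares were 3.68% and 34.2%. For promoter H3K27me3 the channel gene shares were 29.8% (18.7 to 44.0) and 37.0% (24.5 to 51.4), against 9.50% and 16.9% over all genes. Among the longer genes, 6 of 17 with promoter H3K27me3 had an intronic Mtf2 peak (35.3%, 17.3 to 58.7) and 22 of 29 without it (75.9%, 57.9 to 87.8). Over all longer genes these shares were 33.0% and 34.4%, so the first lay near that of all genes and the second above it. Over all genes up to the median length of channel genes they were 2.36% and 3.82%. Those 17 and 29 genes also differed in length, with medians of 54.5 and 248.4 kb, so the split at the median did not even out length. Over all longer genes the medians were 87.8 kb with promoter H3K27me3 and 62.5 kb without it. Per 100 kb of intron the longer channel genes held 0.68 peaks with promoter H3K27me3 and 0.83 without it. Over all longer genes these densities were 0.57 and 0.80. The part of length in the shares was not tested. Over all channel genes it was 0.81 peaks per 100 kb, beside 0.73 for all genes.

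**Figure D3:**
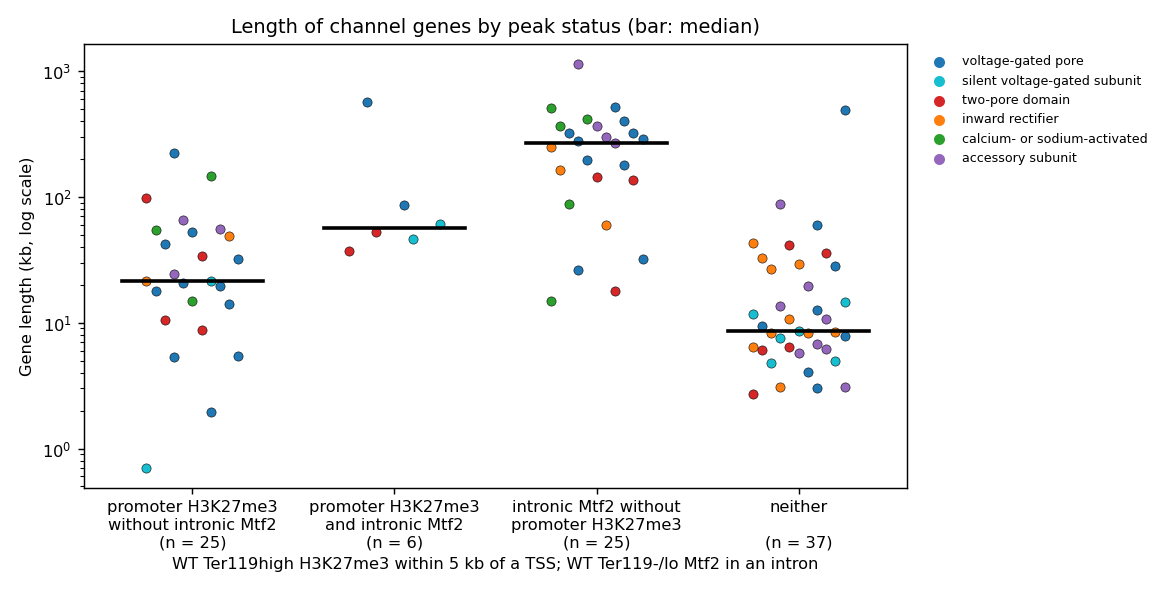
Gene length (kb, log scale) of the 93 channel genes by whether they had a WT CD71+Ter119high promoter H3K27me3 peak and an intronic WT CD71+Ter119-/lo Mtf2 peak. Each dot is a gene, colour is the channel class and the bar is the median. Genes with intronic Mtf2 and no promoter H3K27me3 have a median of 268.8 kb and those with neither 8.65 kb.

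Most intronic Mtf2 peaks lay on repeated sequence. Words of 32 bases were taken every 25 bases along each peak and their exact copies counted on both strands of NCBIM37. A peak with a median of 10 or more copies was called repeated, a measure chosen after the data were seen. In CD71+Ter119-/lo cells 55 of the 76 intronic Mtf2 peaks of channel genes were repeated (72.4%, 61.4 to 81.2), beside 76.3% of the intronic peaks of all genes and 83.3% of the whole list. In CD71+Ter119high cells 19 of 22 were (86.4%, 66.7 to 95.3), beside 80.7% of the intronic peaks of all genes. Of the words taken every 100 bases along the introns of channel genes, 6.78% had 10 or more copies. None of the 41 WT CD71+Ter119high promoter H3K27me3 peaks was repeated. The highest-scoring Kcnip4 peak had a median of 962 copies, and the largest Kcnk12 peak (chr17:88148172-88153632, 284 tags) 739.5. The Mtf2-null peak upstream of Kcnh8 had 9572. Mtf2 libraries held 34.6% and 39.7% unique tags, against 78.4% to 85.4% in H3K27me3 libraries, and the part of repeats in these peaks was not tested.

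Without repeated peaks, 17 channel genes kept an intronic CD71+Ter119-/lo Mtf2 peak (18.3%, 11.7 to 27.3), against 6.16% of all genes, and 3 kept one in CD71+Ter119high cells (3.23%, against 1.10%). Among the 17 were Kcna6, Kcnab1, Kcnd2, Kcng3, Kcnh5, Kcnip1, Kcnip4, Kcnj6, Kcnj16, Kcnk2, Kcnk3, Kcnk12, Kcnmb2, Kcnn4, Kcnq1 and Kcnq3. Among genes with promoter H3K27me3 the share was then 12.9% (5.13 to 28.9), and among those without it 21.0% (12.7 to 32.6). Both were above those of all genes, 8.55% and 5.84%, although the interval of the first held the share of all genes. These shares were not split by length, and channel genes had a median of 29.5 kb beside 15.5 kb for all genes.

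**Figure D4:**
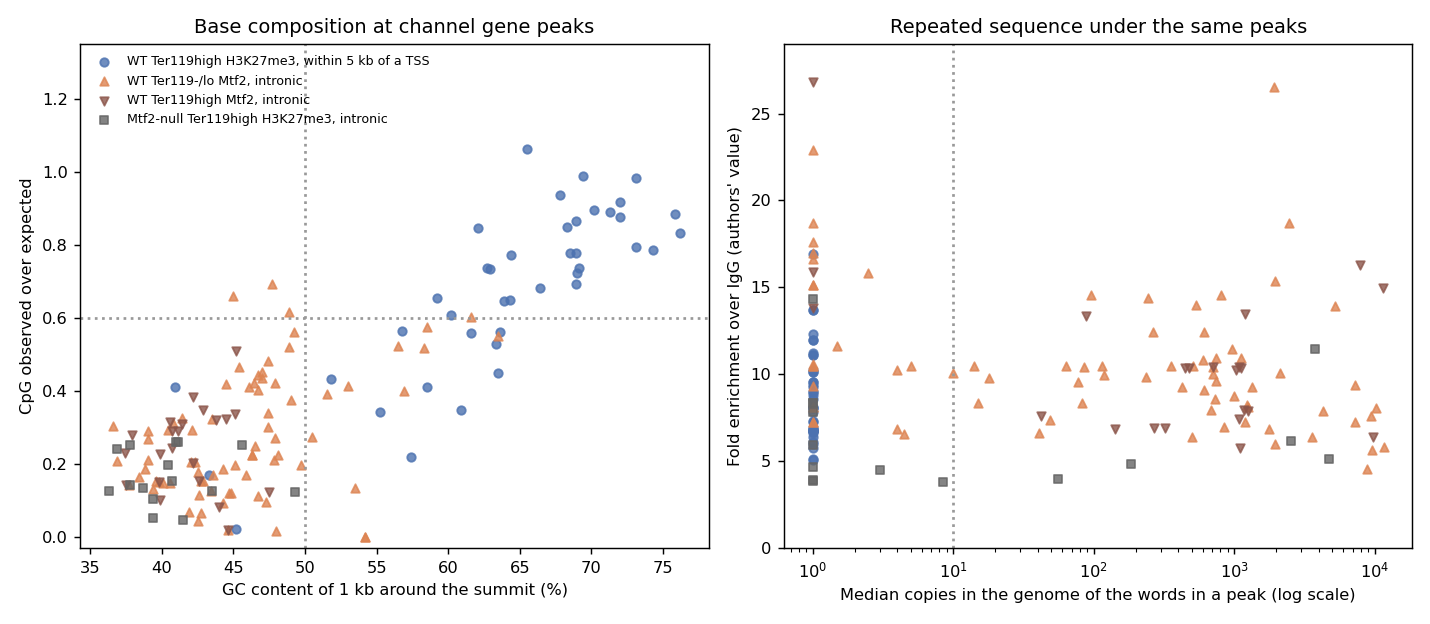
Left, CpG observed over expected against GC content (%) in the 1 kb around the summit of channel gene peaks in 4 lists, with dotted lines at 50% and 0.6. Right, the authors' fold enrichment over IgG against the median number of exact genomic copies of the 32-base words in the same peaks (log scale), with a dotted line at 10 copies. The promoter H3K27me3 peaks sit at 1 copy, while 55 of 76 intronic CD71+Ter119-/lo Mtf2 peaks sit at 10 or more.

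The intronic lists overlapped one another in part. Of the 76 intronic CD71+Ter119-/lo Mtf2 peaks, 11 were overlapped by a CD71+Ter119high Mtf2 peak (14.47%, 8.28 to 24.1), beside 10.5% over all genes. A WT CD71+Ter119-/lo H3K27me3 peak overlapped 10 (13.2%, 7.31 to 22.6), beside 8.97% over all genes. These H3K27me3 and Mtf2 libraries share an IgG control. Seen from the other side, 13 of the 24 intronic WT CD71+Ter119-/lo H3K27me3 peaks of channel genes overlapped a Mtf2 peak (54.2%, beside 48.3% over all genes), and 12 of the 24 were repeated (50%, beside 48.4%). Both were near the values of all genes. No Mtf2-null peak and no WT CD71+Ter119high H3K27me3 peak overlapped any of the 76, with a Wilson upper limit of 4.81% for each list. Over all genes the Mtf2-null lists overlapped 2.16% (CD71+Ter119high) and 0.078% (CD71+Ter119-/lo), and WT CD71+Ter119high H3K27me3 0.80%, all under that limit.

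By class, an intronic CD71+Ter119-/lo Mtf2 peak was found at 5 of 8 calcium- or sodium-activated genes (62.5%, 30.6 to 86.3), whose median length was 118.0 kb. It was found at 12 of 31 voltage-gated pores (38.7%), 5 of 14 two-pore domain genes (35.7%), 4 of 15 accessory subunits (26.7%), 3 of 15 inward rectifiers (20%) and 2 of 10 silent subunits (20%). Silent subunits had a median length of 10.2 kb. Per 100 kb of intron the density was 2.77 peaks in silent subunits, 1.51 in two-pore domain genes and between 0.61 and 0.78 in the other 4 classes. The silent subunit value rests on 4 peaks, 3 of them in Kcns3.

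Kcnn4, Kcnq1, Kcnk5 and Kcnj2 were looked up by name, whatever their values. Kcnn4, the Gardos channel (chr7:25155282-25170228), had no H3K27me3 peak in any list within 5 kb of a TSS or over its body. It had 1 intronic Mtf2 peak in CD71+Ter119-/lo cells, 7.52 kb downstream of the TSS, with 22 tags and a fold of 15.12 on the tandem motif printed above. Kcnq1, a cardiac and epithelial channel whose locus hosts an imprinted antisense RNA, had no promoter peak. Its body (chr7:150293159-150612955) held 1 intronic Mtf2 peak in CD71+Ter119-/lo cells (71 tags, fold 18.72), 1 WT CD71+Ter119-/lo H3K27me3 peak (39 tags, fold 8.58) and 1 WT CD71+Ter119high H3K27me3 peak (23 tags, fold 11.23) that was nearer to the TSS of Cdkn1c. Kcnk5, an alkaline-activated two-pore channel, and Kcnj2, a strong inward rectifier, had no peak of any list within 5 kb of a TSS or over the gene. In all, 33 of the 93 channel genes had no peak of any list there. The share over all genes was not computed, so this count is not a trait shown for channel genes.

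In the remaining lists the highest fold at a channel gene was 16.34 for WT CD71+Ter119-/lo H3K27me3 (Kcnd2, 29 tags) and 19.09 for WT CD71+Ter119high H3K27me3 (an intronic peak of Kcnip1, 38 tags). It was 6.38 for Mtf2-null CD71+Ter119-/lo H3K27me3 (Kcnmb2, 25 tags) and 14.31 for Mtf2-null CD71+Ter119high H3K27me3 (Kcnh1, 76 tags). All 4 peaks were intronic.

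Other ion channel families gave a range of shares for the same measure. Together, 35 of 125 genes of 8 families had a WT CD71+Ter119high promoter H3K27me3 peak (28%, 20.9 to 36.4), an interval that overlaps that of potassium channel genes. Voltage-gated calcium channel genes had one at 15 of 25 (60%, 40.7 to 76.6) and glutamate receptor genes at 7 of 17 (41.2%, 21.6 to 63.99). TRP channel genes had one at 1 of 21 (4.76%, 0.85 to 22.7), sodium channel genes at 2 of 14 (14.3%) and chloride channel genes at 0 of 7. Only the TRP interval lay wholly below that of potassium channel genes. An intronic CD71+Ter119-/lo Mtf2 peak was found at 33 of the 125 (26.4%, 19.5 to 34.7), whose median length was 54.6 kb.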

How the data were processed

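ChIP-seq of H3K27me3 and Mtf2 with IgG controls was analysed from 10 libraries, which the labels assign to fraction, genotype and antibody. The opening line of the series design text names H3K4me3, while the labels and methods name H3K27me3, and the labels were followed. The methods state replicates of 2, and whether these were pooled is not stated. The authors aligned reads with Bowtie2 2.2.3 to a masked mm9 genome, removed blacklisted regions and called peaks with MACS 1.3.7 against the IgG library at a p cutoff of 1e-05. The deposited tag count of each peak is a raw count of reads. For fold enrichment the authors deposited a linear ratio, ChIP over local IgG. Their deposited score puts the p on a negative log10 scale, multiplied by 10. FDR was deposited in percent, as the caller estimated it. The deposited files hold no other depth than the unique tags in their headers, and values are the authors' own, with no error.

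TSS, exons and introns came from GENCODE M1 on NCBIM37, the assembly of mm9, with 1-based coordinates and no peak beyond a chromosome end. An intron is gene body that no exon of that gene covers. A gene had a peak when at least 1 base overlapped the window of 5 kb around any TSS, or an intron. GC and CpG were read in 1 kb around summits and 5′-most TSS. Tags per 1000000 are peak tags scaled to the library's unique ChIP tags. Shares have 95% Wilson intervals, and PCR copies of a tag are not independent molecules. No test was run, because each condition has 1 library. Alternatives were other score, FDR, window, overlap, summit and gene body limits and equal peak numbers. A nearest-TSS rule, introns away from a TSS and a filter on repeated sequence were added after the data were seen. The other families were the Scn, Cacn, Cng and Hcn, Trp, Clcn, Gabr, Gri and Chrn genes. Interval and word-count steps were tested on simulated data. Python 3.11.15, numpy 2.4.6, scipy 1.17.1, pysam 0.24.0 and matplotlib 3.10.9 were used.

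The members, gene lists and rules were chosen with earlier results of these data known. Some genes under the rule, and a sequence, are not reported here. The rule named genes with a WT CD71+Ter119high promoter H3K27me3 peak (full values for the 10 with the highest scores), the next genes outside the window, genes with a Mtf2-null promoter peak, with an intronic CD71+Ter119high Mtf2 peak or with both marks, the 5 genes with most intronic Mtf2 peaks with ties, the highest fold per list, and Kcnn4, Kcnq1, Kcnk5 and Kcnj2. Other genes named were chosen after their values were seen.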

Additional observations from a re-analysis of the deposited data

How the results depend on the processing

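No paired analysis was possible because each condition has 1 library and no test was run. Many counts fell under limits of 100 on the score or 5% on the FDR, and when each list was limited to its 1407 top peaks. Exceptions were intronic CD71+Ter119-/lo Mtf2 (31 genes) and Mtf2-null CD71+Ter119high H3K27me3 (1 gene) at the FDR limit, and Mtf2-null CD71+Ter119-/lo H3K27me3 (1 gene) with equal peak numbers. In that order, channel genes with WT CD71+Ter119high promoter H3K27me3 numbered 15, 14 and 15, and those that lost it in Mtf2-null cells 15, 14 and 15. WT CD71+Ter119-/lo promoter H3K27me3 was left at 0, 0 and 1 gene, and at 3 within 1 kb of a TSS. The Mtf2-null CD71+Ter119high count fell to 0 at the score limit, with equal peak numbers, within 1 kb and without repeated sequence. The Mtf2-null CD71+Ter119-/lo count fell to 0 at the score limit, the FDR limit and within 1 kb. Intronic CD71+Ter119-/lo Mtf2 genes numbered 19 at the score limit, 4 with equal peak numbers and 17 without repeated sequence. Intronic CD71+Ter119high Mtf2 genes numbered 2, 0 and 4 in the first order, and 3 without repeated sequence. Apart from intronic Mtf2 without repeated sequence, no share over all genes was computed under these alternatives. The counts of channel genes under them therefore cannot be set beside the shares of all genes given above. With promoter H3K27me3, 0% had intronic Mtf2 at the score limit and 0% with equal peak numbers. Without it the shares were 24.4% and 5.13%, and 21.0% without repeated sequence. Promoter shares fell to 6.67% of accessory subunits and 0% of calcium- or sodium-activated genes under each of the 3 limits, and to 10%, 0% and 10% of silent subunits. Of 113 alternative values, the other 75 stayed within 1.5 times the count or within the interval. The number of peaks can depend on library depth, which was not tested here. A gene without a peak was below the cutoff at the depth of its library, not shown to lack the mark.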
